A study of Homo sapiens with 21 samples.

Results

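The regions described here are 552 stretches of the genome that carried a called H3K4me3 peak in every library of RS4;11 cells starved of asparagine and in no library of cells kept with it. They were taken from the authors' deposited list of 19279 merged H3K4me3 regions by 1 rule: a peak in all 3 -Asn libraries and none in the 3 +Asn libraries, whose columns the list names untreated and which were read as complete medium. They made up 2.86% of the list and are called gained regions below. The reverse pattern, a peak in all 3 +Asn libraries and none in -Asn, held for 55 regions (0.285%). The members were chosen by these peak calls, so the gain itself is a description and was not tested.

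RS4;11 is an established human line of B-cell precursor acute lymphoblastic leukaemia with a fusion of KMT2A, an H3K4 methyltransferase gene, to AFF1. All groups were cells of this 1 line, collected after 24 h in 1 of 3 media. The -Asn+Fe group had medium lacking asparagine, to which ferric nitrate (10 µM) was added along with hinokitiol (0.75 µM), which ferries iron through membranes. The -Asn group had medium lacking asparagine with no addition, and the +Asn group had complete medium. Each group had 3 H3K4me3 ChIP-seq libraries and 3 RNA-seq libraries from whole-cell RNA. Iron and hinokitiol were only given together, so their parts cannot be told apart. The labels name no separate cultures behind the libraries of a group, so p-values cover a spread among libraries that may be technical only.

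H3K4me3 is the trimethylated form of lysine 4 on histone H3. It is laid down by the SETD1 and KMT2 methyltransferases and removed by demethylases of the KDM5 family, which use iron and 2-oxoglutarate. The mark sits mainly over the start sites of active genes and of CpG-rich promoters. Away from annotated starts it is usually weaker and can lie at enhancers or at unannotated promoters. The precursor B cell identity was checked in the RNA: all 13 markers looked at (among them CD79A, PAX5 and RAG1) averaged at or above 1 CPM, the count scaled to 1e6 counts with TMM factors, in each of the 3 media. Their summed level was 2339.9 to 2427 CPM in -Asn+Fe, 2611 to 2686 in -Asn and 2959 to 3042 in +Asn. Single markers differed both ways: RAG1 was at 48.2 to 72.2 CPM in -Asn and 276 to 289 in +Asn, and PAX5 at 1181 to 1379 CPM in -Asn and 954 to 979.9 in +Asn. Markers of T cells, erythroid cells and epithelium summed to under 1 CPM in every library, and 4 fibroblast markers to 1.28 to 3.76 CPM.

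A few promoters show what kind of sequence the gained regions covered. The 5 windows below belong to the genes whose RNA rose most in -Asn among the genes at starts that averaged at least 1 CPM over the 9 libraries and have a start window whole inside a gained region. Each is the RefSeq window of 300 bases on GRCh38.p14, from 250 bases before to 50 after the gene's start, printed 5′ to 3′ on the gene's strand. Capitals mark a GC box (GGGCGG or its complement) or, in CCDC154, an E-box (CACGTG), and TMEM140 has neither.
TREML2, chr6:41201100-41201399, minus strand: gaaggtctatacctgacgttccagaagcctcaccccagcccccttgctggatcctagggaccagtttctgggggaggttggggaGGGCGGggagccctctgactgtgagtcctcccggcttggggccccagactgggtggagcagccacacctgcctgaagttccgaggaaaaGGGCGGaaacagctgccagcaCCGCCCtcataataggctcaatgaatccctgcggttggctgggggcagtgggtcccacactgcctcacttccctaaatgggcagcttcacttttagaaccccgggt
TMEM140, chr7:135147822-135148121, plus strand: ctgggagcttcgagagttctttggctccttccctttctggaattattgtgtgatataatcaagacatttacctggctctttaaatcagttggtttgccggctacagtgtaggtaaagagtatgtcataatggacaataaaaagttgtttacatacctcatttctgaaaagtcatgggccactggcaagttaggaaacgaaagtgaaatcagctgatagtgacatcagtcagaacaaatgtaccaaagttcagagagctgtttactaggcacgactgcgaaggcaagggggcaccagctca
LPAR3, chr1:84893157-84893456, minus strand: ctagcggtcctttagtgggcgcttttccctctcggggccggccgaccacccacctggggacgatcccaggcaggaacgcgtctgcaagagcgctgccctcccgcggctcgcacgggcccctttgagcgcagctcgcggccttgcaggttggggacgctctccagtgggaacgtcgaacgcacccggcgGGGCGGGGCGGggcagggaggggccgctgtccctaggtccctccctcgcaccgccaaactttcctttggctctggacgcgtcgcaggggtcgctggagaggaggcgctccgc
LINC01679, chr21:43362300-43362599, minus strand: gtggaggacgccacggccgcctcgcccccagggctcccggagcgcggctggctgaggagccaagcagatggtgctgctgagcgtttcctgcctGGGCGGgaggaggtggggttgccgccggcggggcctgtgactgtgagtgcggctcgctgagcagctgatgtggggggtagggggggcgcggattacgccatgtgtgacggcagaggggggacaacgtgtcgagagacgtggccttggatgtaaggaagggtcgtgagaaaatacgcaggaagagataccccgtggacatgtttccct
CCDC154, chr16:1444507-1444806, minus strand: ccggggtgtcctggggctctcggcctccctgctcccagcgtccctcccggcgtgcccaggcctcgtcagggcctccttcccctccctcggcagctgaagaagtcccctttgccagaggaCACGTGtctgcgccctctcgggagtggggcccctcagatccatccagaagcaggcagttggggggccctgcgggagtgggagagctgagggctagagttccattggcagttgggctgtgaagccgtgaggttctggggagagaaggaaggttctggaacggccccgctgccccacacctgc
The windows of TREML2, TMEM140 and CCDC154 were poor in CpG, with observed over expected ratios of 0.284, 0.372 and 0.408, while those of LPAR3 and LINC01679 stood at 0.865 and 0.792.

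The next window belongs to ARHGAP22, the gene with the largest fall in RNA in -Asn among the genes named at starts, and the one after it to GHRL, which rose further with iron. Capitals again mark GC boxes, of which GHRL has none.
ARHGAP22, chr10:48656216-48656515, minus strand: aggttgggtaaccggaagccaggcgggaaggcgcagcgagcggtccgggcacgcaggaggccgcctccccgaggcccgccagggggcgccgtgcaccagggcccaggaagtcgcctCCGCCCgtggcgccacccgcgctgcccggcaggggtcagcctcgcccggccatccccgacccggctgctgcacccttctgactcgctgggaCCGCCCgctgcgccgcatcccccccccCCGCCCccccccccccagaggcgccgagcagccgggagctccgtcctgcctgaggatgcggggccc
GHRL, chr3:10292898-10293197, minus strand: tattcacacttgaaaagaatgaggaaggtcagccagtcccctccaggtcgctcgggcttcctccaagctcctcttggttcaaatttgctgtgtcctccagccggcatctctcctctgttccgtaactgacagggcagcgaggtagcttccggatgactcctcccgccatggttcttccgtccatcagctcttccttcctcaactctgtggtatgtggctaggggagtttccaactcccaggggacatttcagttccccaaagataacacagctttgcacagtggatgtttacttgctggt
Their CpG ratios were 0.737 in ARHGAP22 and 0.386 in GHRL.

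The widest gained region at a gene start, 1507 bp on average, covered MIR138-2, 1 of 2 genes for miR-138. Its main mature product is printed 5′ to 3′ as RefSeq gives it, with the seed (bases 2 to 8) in capitals.
hsa-miR-138-5p, chr16:56858527-56858549, plus strand: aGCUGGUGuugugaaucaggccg
The region, chr16:56858009-56859708, was called in 3 of 3 -Asn+Fe libraries. The count table held 0 reads for MIR138-2 in -Asn+Fe, 1 in -Asn and 0 in +Asn, too few to test, and whole-cell RNA counts of this kind say little about mature miRNAs.

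Some windows carried TGATGNAA, the composite element bound by C/EBP-ATF dimers such as CHOP with ATF4, factors of the amino acid response. Stretches of 30 bases around it are shown with the element in capitals, on the strand of the gene.
LOC102724467, first element, chr16:87779300-87779329, minus strand: ccccgcgagggTGATGCAAccttcgcatac
LOC102724467, next element, chr16:87779176-87779205, minus strand: tctgagctgtgTTGCATCAgccaacgggcc
LINC02988, first element, chr1:150160586-150160615, plus strand: aaactggtgtgTGATGCAAgctgggtagga
LINC02988, next element, chr1:150160693-150160722, plus strand: cctcaaacctcTTCCATCActaagcaagtc
EPS15, chr1:51422194-51422223, minus strand: ccttacagagcTGATGCAAcccctcctttt
PAK3, chrX:111122878-111122907, plus strand: ttttttgaaaaTTGCATCAgggtttttggg
The windows of LOC102724467 and LINC02988 each held 2 elements. The gained region at LOC102724467 (chr16:87778068-87779194) is also the one beside AC126696.3, whose RNA is given below.

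Of 35116 RefSeq promoter windows, 96 overlapped a gained region, and these were set beside the 14713 that overlapped a region called in all 9 libraries. TGATGNAA, searched on both strands, stood in 7 of the 96 windows (7.29%), in 1.43% of the windows at regions called in all 9 and in 3.62% of all windows. Windows at regions with 2 of 3 -Asn calls held it in 4.05% of cases and windows with no region in 5.24%. The other motifs were searched on both strands too. The GC box GGGCGG stood in 58.3% of the 96, in 72.5% at regions called in all 9 and in 45.0% of all windows. The E-box CACGTG stood in 9.38%, 9.93% and 7.26% of those 3 sets, the AP-1 site TGANTCA in 5.21%, 3.79% and 7.71%, and the cAMP response element TGACGTCA in 1.04%, 3.13% and 1.85%. No motif of this set contains another, though matches can overlap at their ends. A match is a run of letters and not a measured binding site.

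The CpG content of the 96 windows lay between that of promoters with a peak in all 9 libraries and that of promoters with none. The median observed over expected ratio was 0.598 in windows at gained regions, 0.847 at regions called in all 9, 0.274 in windows with no region and 0.579 over all windows. The quartiles at gained regions were 0.355 and 0.786. A ratio under 0.6 was found for 48 of the 96 windows, against 13.7% at regions called in all 9. The median GC share was 61.8% in windows at gained regions, 66.3% at regions called in all 9 and 58.7% over all windows.

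**Figure D1:**
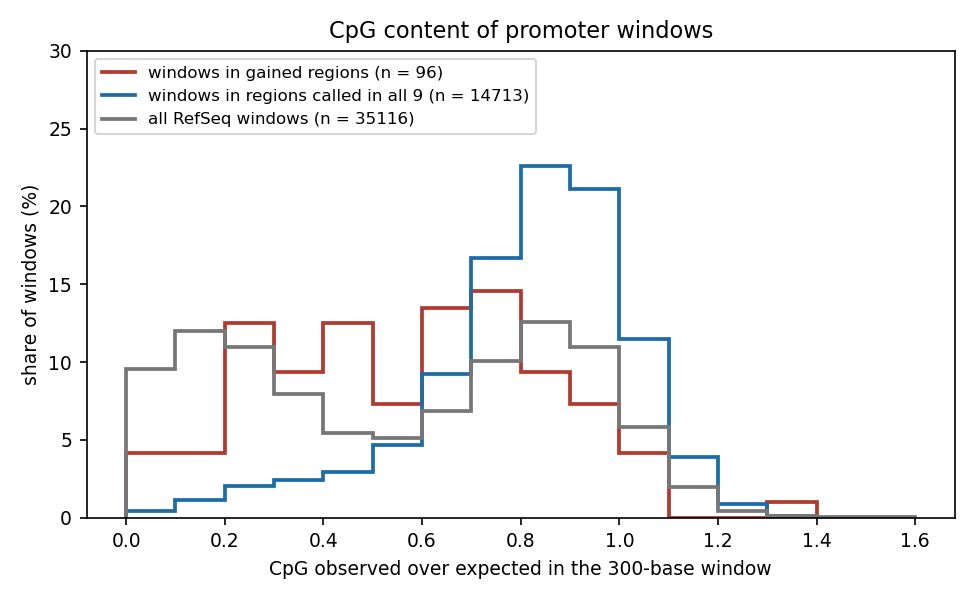
CpG observed over expected (x axis) against the share of RefSeq promoter windows in each bin (y axis, %), for the 96 windows at gained regions, the 14713 at regions called in all 9 libraries and all 35116 windows. The windows at gained regions spread over low and high ratios with a median of 0.598, near the 0.579 of all windows. Those at regions called in all 9 gather around 0.847.

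Most gained regions did not lie at the outer start of a known gene. A region was counted at a start when no more than 1 kb from the most upstream 5′ end of any gene in the count table, and the others by overlap with exons, introns or neither. Of the 552 regions, 124 (22.5%) lay at a start, 102 (18.5%) in an exon, 184 (33.3%) in an intron and 142 (25.7%) between genes. Among the 13883 regions called in all 9 libraries the shares were 75.1% at a start, 13.6% in exons, 5.28% in introns and 6.01% between genes. Over the whole list 59% lay at a start. The 55 regions of the reverse pattern had 4 at a start (7.27%) and 27 in introns (49.1%). Regions are not replicates, so these shares stand side by side with no test.

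The gained regions were scattered. All autosomes and the X chromosome held some, from 2.14% of the regions on chromosome 2 to 5.12% of those on chromosome 21, and 2 lay on unplaced contigs. The median gap to the next gained region was 2008 kb, and 6 of 528 gaps were under 5 kb. The median distance to the nearest region called in all 9 libraries was 28.7 kb, and 89 of 552 (16.1%) had one within 5 kb, against 15.1% of the regions called in all 9 themselves. Of the 286 regions inside genes, 283 had a protein-coding or lncRNA host, and their median distance from the host's outer start was 29.6 kb. In 142 of these the host's own start carried a region called in all 9 libraries.

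**Figure D2:**
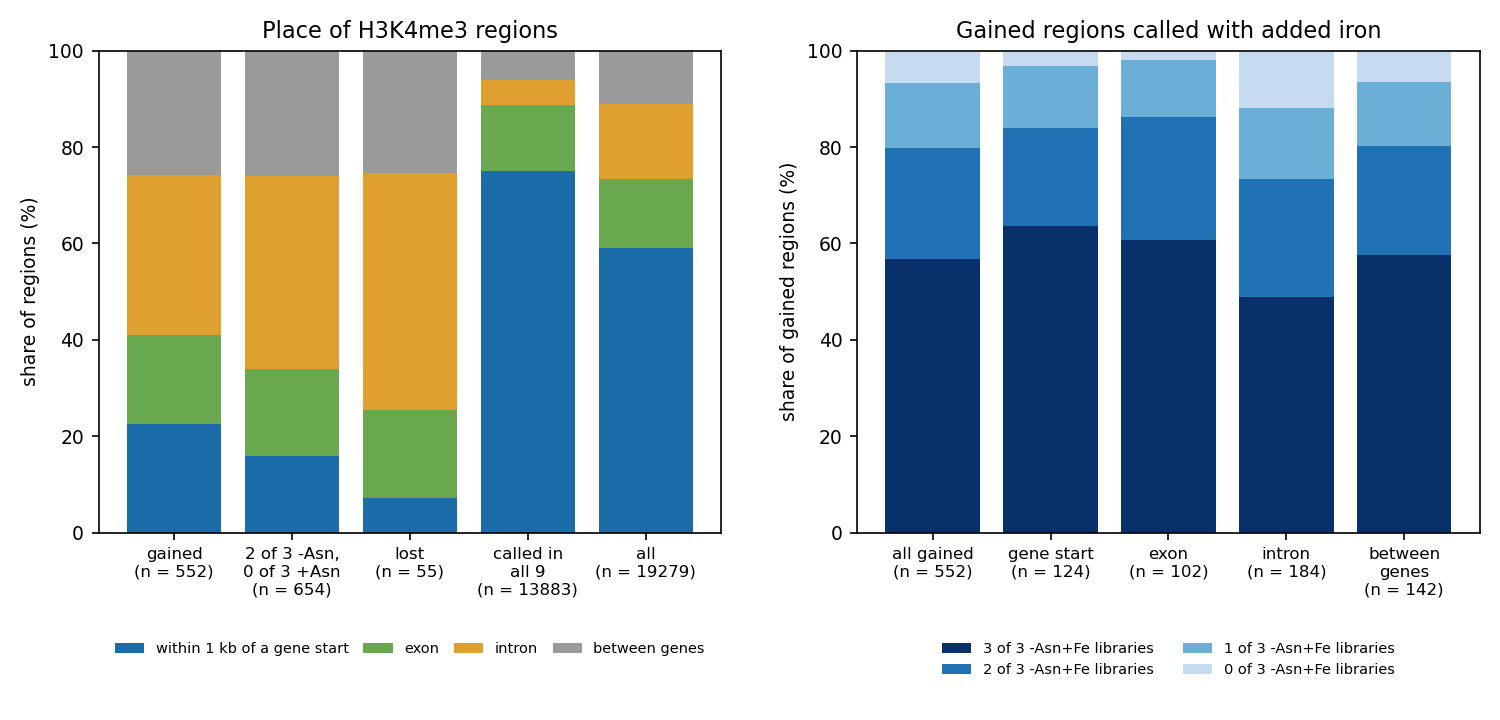
Left, the share of H3K4me3 regions (y axis, %) within 1 kb of a gene start, in exons, in introns and between genes, for gained regions, regions with 2 of 3 -Asn and 0 of 3 +Asn calls, regions of the reverse pattern (lost), regions called in all 9 libraries and all regions. Right, the share of gained regions (y axis, %) called in 3, 2, 1 or 0 of the -Asn+Fe libraries, for all 552 and by place: 56.7% of all were called in 3, and 6.7% in none.

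Gained regions were short. Their covered length, the mean over the 3 -Asn libraries, had a median of 457 bp and ran from 229 to 2761 bp, against a median of 1757 bp for regions called in all 9 libraries. By place the medians were 476 bp at starts, 522 bp in exons, 439.7 bp in introns and 439 bp between genes. The shortest gained region in a -Asn library covered 216 bp, and 115 of the 552 regions (20.8%) covered at least 500 bp in each -Asn library. The 654 regions just outside the rule, with 2 of 3 -Asn calls and none in +Asn, had a median of 346 bp. The 323 with 3 -Asn calls and 1 +Asn call covered a median of 486 bp in -Asn and 276 bp in that 1 +Asn library.

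The number of gained regions depended most on 1 library. In -Asn the libraries called 15554, 17448 and 16507 of the 19279 regions, in -Asn+Fe 17206, 15891 and 16384, and in +Asn 15141, 15230 and 14741. Without -Asn replicate 1, which called the fewest of the starved libraries, the rule would take 1054 regions in place of 552, and 205 in place of 124 at a start. Leaving out any other -Asn or +Asn library gave 579 to 708 regions. With fewer libraries the rule asks for fewer calls, so the number cannot fall. All 3 -Asn libraries called more regions than any +Asn library, and the part of the total number of calls in the gain was not tested.

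Most gained regions were also called with added iron. Of the 552, 313 (56.7%) were called in 3 of 3 -Asn+Fe libraries, 128 in 2, 74 in 1 and 37 (6.7%) in none. Of all 19279 regions 79.5% were called in 3 of 3 -Asn+Fe libraries and 7.49% in none. These and the shares of all regions per library include the 13883 regions called in all 9 libraries, which count as called by definition. By library, 474 (85.9%), 358 (64.9%) and 437 (79.2%) were called in -Asn+Fe replicates 1, 2 and 3, while those libraries called 89.2%, 82.4% and 85% of all regions. Replicate 2, with the fewest calls in all, also had the fewest here. Of the 654 regions with 2 of 3 -Asn calls, 181 (27.7%) were called in 3 of 3 -Asn+Fe libraries. Over the whole list, a peak in all 3 -Asn+Fe libraries and none in +Asn was found at 617 regions (3.2%), and a peak in all 3 -Asn libraries and none in -Asn+Fe at 52 (0.27%).

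At gene starts 79 of 124 gained regions were called in 3 of 3 -Asn+Fe libraries and 4 in none, in exons 62 of 102 and 2, in introns 90 of 184 and 22, and between genes 82 of 142 and 9. The median covered length in -Asn was 523 bp for regions called in 3 -Asn+Fe libraries, 406 bp for 2, 390.3 bp for 1 and 361 bp for none. The 313 called in all 3 covered a median of 494 bp in -Asn+Fe and 523 bp in -Asn. Their ratio of -Asn+Fe over -Asn had a median of 0.958 and ran from 0.424 to 2.45, and 172 of 313 were shorter with iron. These lengths come from the peaks that chose the members, so they carry no test. The number with no call in -Asn+Fe ran from 38 to 146 when 1 library was left out and the rule applied to the rest, with 146 without -Asn replicate 1, 69 without -Asn replicate 3, 79 without -Asn+Fe replicate 1 and 61 without -Asn+Fe replicate 3.

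**Figure D3:**
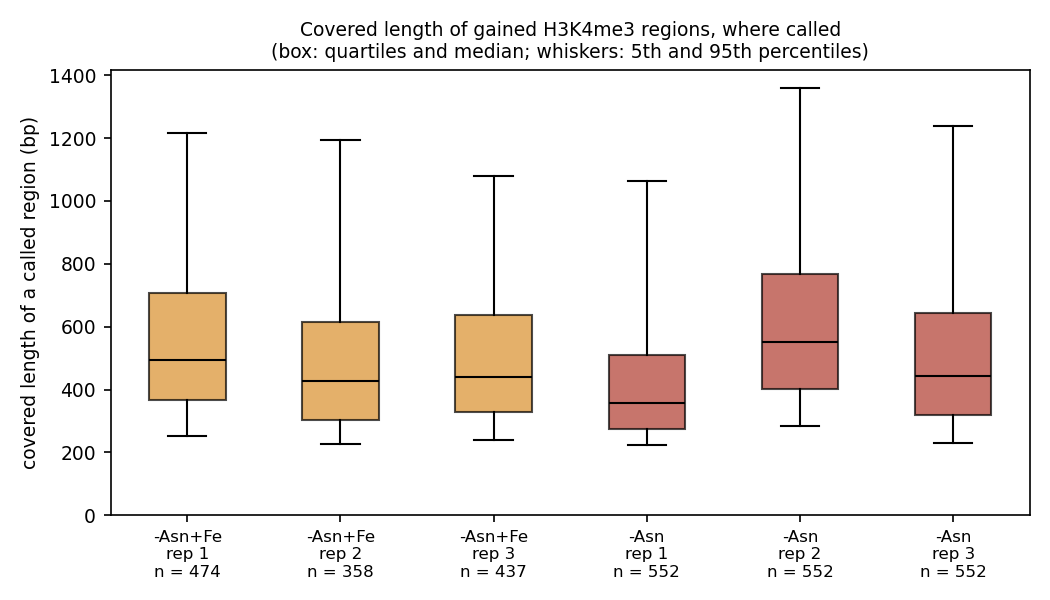
Covered length in bp (y axis) of gained regions in each -Asn+Fe and -Asn library (x axis), over the regions called there. Boxes give quartiles and median and whiskers the 5th and 95th percentiles; the medians lie between 428 and 495 bp in -Asn+Fe and between 358 and 550 bp in -Asn.

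RNA was measured in libraries of its own, so it bears on these places independently of the rule. The 124 regions at starts touched 144 genes: 77 protein-coding genes, 47 lncRNAs and, for the rest, pseudogenes and small RNAs among others. Of these, 87 (60.4%) were under 1 CPM in -Asn and 103 (71.5%) in +Asn. In +Asn 32.2% of the 14935 genes at regions called in all 9 libraries were under 1 CPM, and 81.0% of all 66738 genes in the table. The quasi-likelihood test of edgeR over all 9 libraries could be run for 74 of the 144 genes, among 17939 genes tested. A gene is called at a Benjamini-Hochberg adjusted p under 0.05. The RNA libraries held 36773377 to 41898475 counts in -Asn, 29362707 to 42478518 in -Asn+Fe and 39155120 to 40988303 in +Asn. Replicate 1 of -Asn stood apart from the other 2 RNA libraries of its group (chi-square per degree of freedom 37.0 and 40.9, against 5.73 between those 2).

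Genes at gained starts mostly had more RNA in -Asn than in +Asn. Of the 74 tested, 49 (66.2%) were higher in -Asn and 10 (13.5%) lower, where 31.0% of all tested genes were higher and 30.2% lower. Their median log2 fold change was 1.32, against 0.04 over all genes and -0.03 over the 11917 tested genes at regions called in all 9 libraries. The median depends on which genes are kept: it was 0.91 with no filter on low counts and 1.87 for regions of at least 500 bp in each -Asn library. At least 2-fold differences held for 42 of the higher and 5 of the lower genes. Among all 17939 tested genes they held for 2616 higher and 1481 lower. Without -Asn replicate 1 the counts were 50 higher and 11 lower. In bulk RNA a change in the share of cells that express a gene and a change in RNA per cell cannot be told apart.

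A gene could enter the test through the group in which it was high. Of the 74, 48 reached the count minimum in all 3 +Asn libraries. Among those, 29 were higher in -Asn and 10 lower, while 28.9% of all such genes were higher and 36.3% lower. Their median log2 fold change was 0.73. The other 26 fell below the minimum in at least 1 +Asn library, and 20 of them were higher and the other 6 were not called. Of all genes that entered in this way 41.0% were higher and 0.97% lower. TREML2, CLEC4A, LPAR3, H1F0, TMEM140, PLAU and AC118345.1, named below, were among these 26, so their p-values carry this limit. INHBE, KLHDC7B, OSCAR and BMP2, named below for regions away from starts, also fell below the minimum in +Asn. For 11 of the 144 genes another region at the same start was called in a +Asn library. Leaving them out gave 44 higher and 8 lower of 65 tested. Lists beside this one differed in size: of 56 tested genes at the 654 regions with 2 of 3 -Asn calls, 30 were higher and 5 lower (median log2 0.67), and of 5 tested genes at the 55 regions of the reverse pattern 1 was higher and 1 lower. Of the 16 tested lncRNAs, 11 were higher and 1 lower, and of the 56 tested protein-coding genes 36 were higher and 9 lower.

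**Figure D4:**
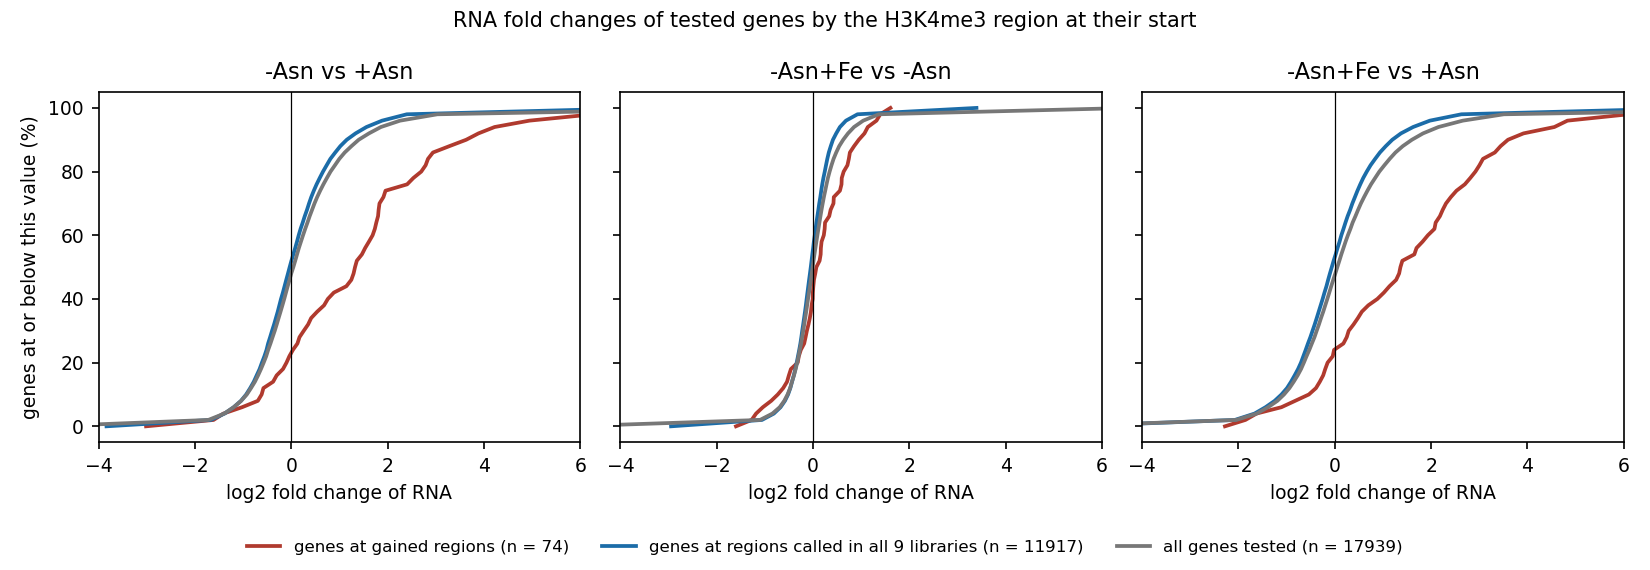
Cumulative share of tested genes (y axis, %) against the log2 fold change of RNA (x axis) for -Asn vs +Asn, -Asn+Fe vs -Asn and -Asn+Fe vs +Asn. The line of the 74 tested genes at gained regions lies right of the others in the panels against +Asn, with medians of 1.32 and 1.36, and next to them in -Asn+Fe vs -Asn, with a median of 0.07.

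Among surface receptors, TREML2 (ENSG00000112195.9), a receptor of the TREM family on lymphoid and myeloid cells, had the largest rise of the genes at starts that averaged at least 1 CPM. Its RNA was 31.2, 29.9 and 29.9 CPM in -Asn, against 0.375, 0.259 and 0.252 CPM in +Asn. The groups were far apart (log2 fold change 6.66, SE 0.137, edgeR adjusted p = 1.29e-15). Its region, chr6:41199970-41201464, covers the start and measured 629, 1029 and 482 bp in -Asn+Fe, against 980, 1409 and 1375 bp in -Asn. With iron the RNA was 30.2, 29.7 and 30.9 CPM, and no difference from -Asn was called (log2 0.00, adjusted p = 0.992).

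CLEC4A, a C-type lectin receptor with an inhibitory motif, had 2.11, 2.28 and 3.09 CPM in -Asn, against 0.0803, 0.144 and 0.14 CPM in +Asn. It rose 20.2-fold (edgeR adjusted p = 8.42e-09), and its region lay 31 bp from the gene's outer start. CLEC4A was under the count minimum in +Asn and entered the test through the groups where it was high. LPAR3, a G-protein-coupled receptor for lysophosphatidic acid, had 1.47, 1.4 and 1.5 CPM in -Asn, against 0.161, 0.0288 and 0.364 CPM in +Asn, a 7.73-fold rise (log2 2.95, or 3.84 without +Asn replicate 3). For both genes all 3 -Asn libraries lay above all 3 +Asn libraries. Markers of monocytes and granulocytes, which can express such receptors, summed to 17.2 to 18.3 CPM in -Asn, 14.5 to 15.3 in -Asn+Fe and 11.6 to 12.2 in +Asn. Most of each sum was CSF1R, at 16 to 17 CPM in -Asn, 12.4 to 13.9 in -Asn+Fe and 9.16 to 10.2 in +Asn, while LYZ was at 0.184 to 0.534 CPM in -Asn and 1.23 to 1.45 in +Asn. Of their 7 genes 1 reached 1 CPM in -Asn and 2 in +Asn, ELANE was at 0 in +Asn, and their part in these results was not tested.

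H1F0 encodes H1.0, a linker histone enriched in nondividing cells. Its RNA was 23.3, 18.9 and 19.3 CPM in -Asn, against 0.294, 0.259 and 0.532 CPM in +Asn, with no overlap (56.1-fold, log2 5.81, SE 0.192, edgeR adjusted p = 2.7e-13). Its region, chr22:37804812-37805603, was called in 2 of 3 -Asn+Fe libraries, with 483, 0 and 224 bp there and 338, 792 and 480 bp in -Asn. In -Asn+Fe its RNA was 7.33, 6.75 and 6.14 CPM, below every -Asn library (log2 -1.60, adjusted p = 1.11e-07) and above every +Asn library (18.5-fold, adjusted p = 2.06e-11).

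Genes of the membrane and the cytoskeleton came next in size. BAIAP2L1, an actin-binding protein that curves membranes, had 56.1, 48.3 and 49.1 CPM in -Asn, against 2.49, 3.63 and 3.28 CPM in +Asn (16.4-fold). At its start another region was called in +Asn, and the gained one lies 818 bp from the outer 5′ end, so the gain there lies beside a peak also called with asparagine. SPNS3, of the Spinster family of lipid transporters, had 53, 49.1 and 47.4 CPM in -Asn, against 4.5, 2.45 and 3.31 CPM in +Asn (14.5-fold). TMEM140, a small membrane protein, had 4.72, 4.15 and 5.19 CPM in -Asn, against 0.375, 0.23 and 0.448 CPM in +Asn (13.2-fold). The 3 rises passed the edgeR test at adjusted p = 5.52e-14, 3.65e-12 and 5.34e-10, and in none did the libraries of the 2 media overlap. The region at TMEM140 also lies within CYREN and AGBL3.

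PLAU, the urokinase that activates plasminogen, had 1.98, 1.69 and 1.5 CPM in -Asn, against 0.107, 0.0864 and 0.28 CPM in +Asn (10.7-fold, log2 3.42, edgeR adjusted p = 2.52e-07, or log2 4.08 without +Asn replicate 3). CCDC154, a coiled-coil protein needed for bone resorption in mice, had 4.97, 6.14 and 5.14 CPM in -Asn, against 1.15, 0.864 and 1.01 CPM in +Asn (5.35-fold, adjusted p = 4.63e-09). For both genes every -Asn library lay above every +Asn library.

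Among noncoding genes at starts, AC126696.3, whose region lies next to the paired TGATGNAA elements shown above, had 4.48, 5.77 and 4.82 CPM in -Asn, against 0.482, 0.749 and 0.364 CPM in +Asn (9.45-fold, edgeR adjusted p = 1.91e-09). AC119428.2 rose 6.94-fold to 5.37 ± 0.219 CPM in -Asn, against 0.77 ± 0.085 CPM in +Asn (SD, n = 3 libraries each; edgeR adjusted p = 3.49e-10). LINC01679 rose 5.83-fold to 2.29 ± 0.424 CPM, against 0.388 ± 0.129 CPM in +Asn (SD, n = 3 each; edgeR adjusted p = 3.22e-07). AC118345.1, at the fifth widest region among those at starts, had 244 counts in -Asn and 0 in +Asn, at least 72.1-fold higher when a floor of 3 counts stands for the +Asn group. Its RNA was 1.04, 0.482 and 0.795 CPM in -Asn+Fe, against 2.03, 1.84 and 2.14 CPM in -Asn, lower in every library with iron (log2 -1.34, adjusted p = 0.00205). The second and the third widest of these regions lay at C15orf62 and AC004832.6. C15orf62 averaged 6.78 CPM in -Asn and 2.22 in +Asn (edgeR log2 1.61, adjusted p = 8.5e-08), while AC004832.6, at 0.21 and 0.281 CPM, was not called (log2 -0.39, adjusted p = 0.547).

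**Figure D5:**
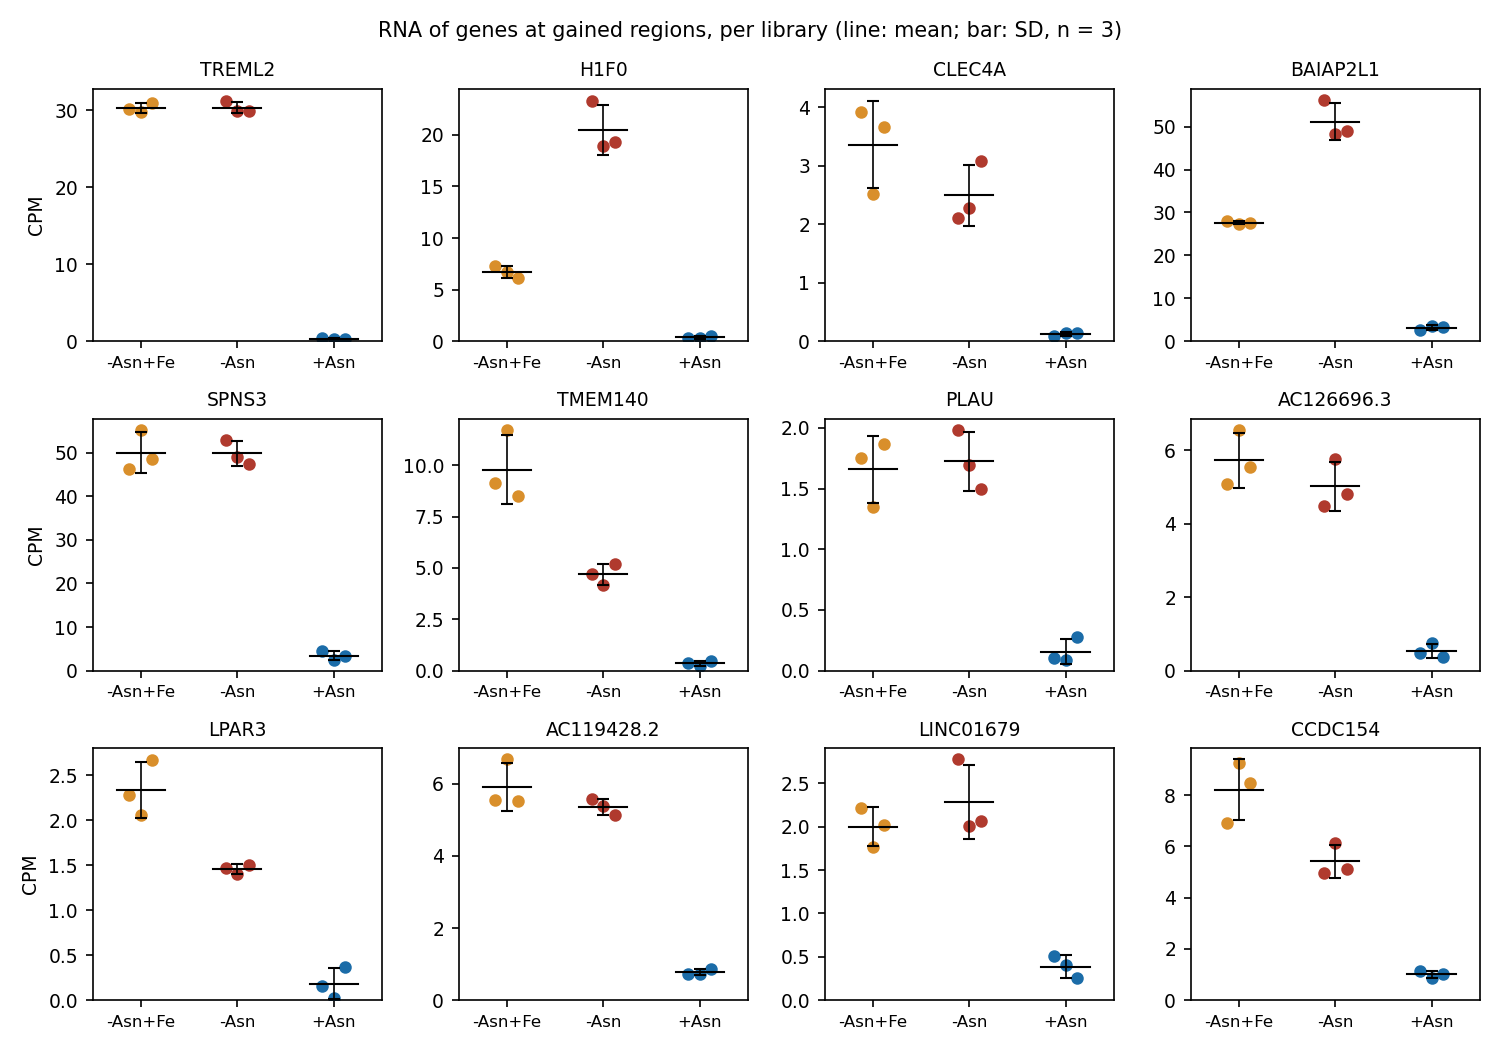
RNA in CPM (y axis, from 0, each panel with its own scale) of the 12 named genes at gained starts that rose most, per library in -Asn+Fe, -Asn and +Asn (x axis), with the mean as a line and the SD as a bar (n = 3). In every panel all -Asn and -Asn+Fe points lie above all +Asn points; H1F0 and BAIAP2L1 lie lower in -Asn+Fe than in -Asn, at 6.74 and 27.6 CPM against 20.5 and 51.1 CPM.

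A gained region did not always go with more RNA. ARHGAP22 had 1.52, 1.2 and 1.13 CPM in -Asn, against 4.12, 3.89 and 3.89 CPM in +Asn (log2 -1.63, edgeR adjusted p = 4.99e-07), although its region covers the outer start. CYSLTR1, a receptor for cysteinyl leukotrienes, averaged 0.819 ± 0.0868 CPM in -Asn and 2.16 ± 0.0665 CPM in +Asn, and CELSR3, an adhesion receptor of planar polarity, averaged 1.96 ± 0.354 and 4.30 ± 0.393 CPM (SD, n = 3 each; edgeR adjusted p = 2.58e-05 and 2.3e-05). Both regions were called in only 1 of 3 -Asn+Fe libraries.

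Enzymes were among the genes that fell. HMGCS1, the HMG-CoA synthase of sterol synthesis, averaged 133 ± 12.1 CPM in -Asn, against 403 ± 7.91 CPM in +Asn (SD, n = 3 each; edgeR log2 -1.60). TXNRD1, a thioredoxin reductase, fell to 249.8, 273 and 268 CPM in -Asn, against 459, 474 and 488 CPM in +Asn (log2 -0.85). ACSS2, an acetyl-CoA synthetase, and SPTLC2, of sphingolipid synthesis, fell by 0.67 and 0.57 on the log2 scale. HMGCS1 and SPTLC2 had another region called in +Asn at the same start, and their gained regions were 307 and 252 bp long, 74 and 113 bp from a region called in all 9 libraries. The ACSS2 region is shared with GGT7 on the other strand, whose RNA rose 2.49-fold (adjusted p = 5.45e-05), and the strand setting of the counting is not given in the sources used here. TESPA1, a signalling protein of thymocytes, fell by 0.29 on the log2 scale (adjusted p = 0.0277) and lost the call under 7 of 18 alternatives, the fit without +Asn replicate 2 or 3 or -Asn replicate 3 among them. AL442125.1 fell by 0.62, a call lost with library totals only.

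With iron added to starved cells, RNA at gained starts moved both ways. Of the 74 tested genes 14 were higher and 13 lower in -Asn+Fe than in -Asn, where 14.0% and 16.8% of all tested genes were, with a median log2 fold change of 0.07. Against +Asn the counts in -Asn+Fe were 50 higher and 8 lower (32.9% and 31.9% of all genes), with a median of 1.36. This comparison shares its +Asn libraries with the one above. The 54 tested genes whose region was called in 3 of 3 -Asn+Fe libraries held 8 higher and 10 lower in -Asn+Fe vs -Asn. The 20 with 0 to 2 calls held 6 higher and 3 lower. The difference between these 2 sets was not tested.

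Genes higher with iron included secreted and transport proteins. GHRL, which encodes the hormone ghrelin, had 2.06, 2.61 and 2.33 CPM in -Asn+Fe, against 0.934, 0.663 and 0.692 CPM in -Asn (log2 1.61, edgeR adjusted p = 0.000105). Its start also lies in SEC13 and the antisense gene GHRLOS. ABCB6, a porphyrin transporter, had 3.88, 4.02 and 3.83 CPM in -Asn+Fe, against 1.31, 1.74 and 1.22 CPM in -Asn (log2 1.45, adjusted p = 1.24e-05), and its region covered 928, 836 and 1029 bp in -Asn+Fe and 578, 697 and 610 bp in -Asn. In both genes the RNA libraries of the 2 media stood apart, and at ABCB6 so did the lengths.

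TXNRD1 rose to 579.7 ± 4.59 CPM in -Asn+Fe, against 264 ± 12.1 CPM in -Asn (SD, n = 3 each; edgeR log2 1.14). APOBEC3H, a cytidine deaminase with close copies beside it, rose by log2 1.32 and the pseudogene GVINP1 by 1.14 (adjusted p = 1.22e-05 and 0.000114).

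The genes named as lower with iron were H1F0 and BAIAP2L1 (above), CCDC155, UBE2S, FMOD and LAX1. CCDC155, the meiotic protein KASH5 that ties chromosomes to the nuclear envelope, had 1.66, 2.8 and 2.13 CPM in -Asn+Fe, against 4.64, 5.23 and 4.43 CPM in -Asn (log2 -1.14, edgeR adjusted p = 0.000325). UBE2S, the ubiquitin-conjugating enzyme of the anaphase-promoting complex, averaged 103 ± 5.22 CPM in -Asn+Fe, against 188 ± 28.4 CPM in -Asn, and FMOD, the proteoglycan fibromodulin, 17.1 ± 1.06 and 29 ± 2.59 CPM (SD, n = 3 each; log2 -0.87 and -0.76). LAX1, an adaptor of lymphocyte signalling, fell by 0.61 on the log2 scale. The regions of these 4 genes and of BAIAP2L1 were called in 3 of 3 -Asn+Fe libraries, while that of H1F0 was not called in all 3. The CCDC155 region also covers the start of AC010643.1, whose RNA was not called with iron (log2 0.06, edgeR adjusted p = 0.86).

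The longest gained regions lay inside genes. In exons the widest was in MYH9, a nonmuscle myosin heavy chain, at chr22:36328788-36332597 with 2346, 1942 and 1934 bp in -Asn+Fe and 1955, 3678 and 2651 bp in -Asn. The others of the 5 were in GOLIM4, a Golgi protein, at 2192 bp, INHBE at 2181 bp, HERPUD1 at 1791 bp and TMBIM6, a modulator of cell death in the endoplasmic reticulum, at 1632 bp. In introns they were in ARL15 (2106 bp), USP22 (1582 bp), GAB2 (1555 bp), TRIM66 (1522 bp) and R3HCC1L (1435 bp). Between genes they lay near KCNG1, SLC7A10, VAPA, ARHGAP23 and TNKS, with 1245 to 1609.7 bp. Of these 15 regions 14 were called in 3 of 3 -Asn+Fe libraries, and that in R3HCC1L in 2.

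Several of the genes with a gained region in the body rose strongly. INHBE, a subunit of activin E and part of the amino acid response, had 38.8, 36.5 and 36.6 CPM in -Asn, against 0.0535, 0.0864 and 0.084 CPM in +Asn. Its region, chr12:57454575-57457291, lies 2252 bp from the outer 5′ end in the table and measured 1773, 1193 and 1109 bp in -Asn+Fe and 1781, 2685 and 2077 bp in -Asn. INHBE RNA was 23.8, 26.1 and 23 CPM with iron, below every -Asn library (edgeR log2 -0.62, adjusted p = 2.35e-05). KLHDC7B, a kelch-domain protein, had 28.5, 30.7 and 27.3 CPM in -Asn, against 0.107, 0.0288 and 0 CPM in +Asn, from 5 counts in that group, and its region lies 1941 bp from the outer start. OSCAR, an immunoglobulin-like receptor of osteoclasts and myeloid cells, had 11.2, 10.6 and 10.1 CPM in -Asn, against 0.0535, 0.0576 and 0.196 CPM in +Asn (log2 6.66, adjusted p = 7.11e-13, or log2 7.48 without +Asn replicate 3), from 11 counts in +Asn. Its region lies 1315 bp from the gene's outer start and 871 bp from a region called in all 9 libraries. The monocyte and granulocyte marker values given above touch this gene too, and their part was not tested.

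Other neighbours with large rises lay farther off. BMP2, a secreted morphogen, had 22.6, 20.2 and 21.3 CPM in -Asn, against 0.241, 0.115 and 0.224 CPM in +Asn (edgeR log2 6.75, adjusted p = 6.84e-15), with a gained region 19.9 kb from its start that was called in 1 of 3 -Asn+Fe libraries. The outer start of BMP2 itself lay within 1 kb of a region called in at least 1 +Asn library. With iron BMP2 RNA was 32.8, 29.6 and 31.1 CPM, above every -Asn library. AL035681.1, a lncRNA that overlaps L3MBTL2, had 36, 30.1 and 29 CPM in -Asn, against 0.375, 0.317 and 0.42 CPM in +Asn (log2 6.40), with a region 10.5 kb from its start. Reads of these overlapping genes may not be told apart. The neighbours with the largest falls were TMEM97, a sterol-binding receptor (log2 -2.26), NDRG2 (log2 -2.22), LINC01922 (log2 -2.03), SLC19A1, the reduced folate carrier (log2 -1.98), and TIMP2, an inhibitor of metalloproteinases (log2 -1.77). The regions near LINC01922 and in SLC19A1 were called in no -Asn+Fe library. All 5 adjusted p-values from edgeR lay between 1.17e-13 and 9.35e-09.

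Away from starts the RNA of neighbouring genes lay nearer to the background. Of 227 tested hosts of gained regions in exons or introns 98 (43.2%) were higher in -Asn and 70 (30.8%) lower, with a median log2 fold change of 0.18. Of 402 tested genes with the nearest start on either side, 169 (42.0%) were higher and 115 (28.6%) lower, with a median of 0.17. The background shares were 31.0% and 30.2%. In -Asn+Fe vs -Asn the hosts held 42 higher (18.5%) and 41 lower (18.1%), and the nearest starts 71 (17.7%) and 72 (17.9%), near the 14.0% and 16.8% of all tested genes.

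None of 186 genes on 9 lists of pathways had a gained region within 1 kb of its outer 5′ end. Other starts inside these genes were not looked at. Such a region was rare in general, at the start of 0.413% of all tested genes and 0.444% of the protein-coding ones, so its absence says nothing particular about these lists. The lists cover the ATF4 and amino acid response, p53 targets, the unfolded protein response, NF-kB and AP-1, H3K4 methyltransferase complexes, H3K4 demethylases, S phase, KMT2A fusion targets, and homeobox and neural genes. Of all tested protein-coding genes 78.7% had a region called in all 9 libraries at the start. The list counts that follow take every listed gene, tested or not, so they are not directly comparable with this share. On the lists the numbers were 28 of 40 in the ATF4 list, 20 of 23 p53 targets, 19 of 20 genes of the unfolded protein response, 21 of 21 of NF-kB and AP-1 and 16 of 20 KMT2A fusion targets. They were 25 of 25 S phase genes, 16 of 16 methyltransferase genes, 6 of 7 demethylases and 4 of 14 homeobox and neural genes. Of all tested genes 31.0% were higher in -Asn than in +Asn and 30.2% lower. In this comparison 32 of 36 tested genes of the ATF4 list were higher and 1 lower (median log2 1.84). All 24 tested S phase genes were lower (median log2 -1.69). The counts were 16 and 3 of 22 for p53 targets, 13 and 2 of 20 for the unfolded protein response, 13 and 4 of 20 for NF-kB and AP-1 and 2 and 9 of 16 for the methyltransferase genes. They were 2 and 3 of 7 for demethylases, 7 and 5 of 20 for fusion targets and 5 and 1 of 7 for homeobox and neural genes. The fusion targets lay near the shares of all tested genes.

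Of the listed genes 7 had a gained region in the body but not at the outer start: SLC7A5, INHBE, HERPUD1, RUNX1, BCL2, PROM1 and PAX6. HERPUD1, which helps to clear misfolded proteins from the endoplasmic reticulum, had 220, 200.2 and 207 CPM in -Asn, against 40.1, 40.2 and 41.2 CPM in +Asn (5.16-fold, edgeR adjusted p = 4.66e-14). Its region lies 25 bp from one called in all 9 libraries, at chr16:56935764-56938207, with 1745, 2346 and 1282 bp in -Asn. SLC7A5, the large subunit of a transporter of large neutral amino acids, averaged 765 ± 16.4 CPM in -Asn and 416 ± 20.5 CPM in +Asn (SD, n = 3 each; log2 0.88), and its intron region covered 1205, 299 and 932 bp in -Asn+Fe and 349, 499 and 437 bp in -Asn. The fusion targets RUNX1 and BCL2, a transcription factor of blood cells and an inhibitor of apoptosis, fell by 0.53 and 0.51 on the log2 scale (adjusted p = 5.34e-05 and 2.76e-05). PROM1, the stem cell antigen CD133, was not called (log2 0.11, adjusted p = 0.275), nor was PAX6, an eye and neural transcription factor under 1 CPM throughout (log2 1.62, adjusted p = 0.0514).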

How the data were processed

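For H3K4me3 the deposited table gives only the positions of called peaks, per library and as 19279 merged regions on hg38; it has no heights, no counts and no significance values. Its lines hold 13 fields and its header 12 names, and the last 9 fields were read as the libraries. The submitters' processing notes name Bowtie2 (2.4.4), MACS2 (2.2.7.1) and Picard (2.18.26). The peak threshold is not given in the sources used here, and 3 input libraries were not used. The RNA table holds raw counts, deposited by the authors, for 66738 genes; the same notes name STAR 2.7.2a and featureCounts of Subread 1.6.5.

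Differences in RNA counts were assessed in edgeR (4.0.16, under R 4.3.3) with TMM factors, filterByExpr with a count minimum of 10, a robust quasi-likelihood fit over 9 libraries, 3 contrasts and Benjamini-Hochberg adjustment over 17939 genes. The biological coefficient of variation was 0.0871, with 6 residual degrees of freedom. Intervals and floors cover counting error only. On simulated counts, 2-fold changes in genes at or above 1 CPM were recovered in 100.0% of cases for -Asn vs +Asn, 97.6% for -Asn+Fe vs -Asn and 92.3% for -Asn+Fe vs +Asn. The share of calls that fell on genes simulated without change was 8.59%, 4.92% and 4.07%. The simulation changed few genes, as many up as down, and the 2-fold rates rest on 37, 41 and 39 genes. In the data 61.2% of tested genes were called in -Asn vs +Asn, so these rates may not hold there. DESeq2 1.42.0, other factors and filters, a replicate block, a 1.2-fold minimum and leaving out libraries were tried. Regions and figures were handled in Python 3.11.15 (pandas 2.3.3, numpy 2.4.6, matplotlib 3.10.9). Sequences come from RefSeq tables (GRCh38.p14), where 74 of the 144 genes at gained starts matched a window by name.

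Named genes were called, averaged 1 CPM or more and had groups that did not overlap. By fold change these were at most 12 higher and 10 lower in -Asn vs +Asn and at most 6 each way in -Asn+Fe vs -Asn. At most 5 neighbours each way, the 5 widest regions per place and listed genes were added. GGT7 was named after its values were seen. The members and lists were chosen with earlier results of these data known. A gene that the naming rule also picked is not reported here.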

Additional observations from a re-analysis of the deposited data

How the results depend on the processing

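Requiring at least 500 bp in each -Asn library left 115 gained regions, 98 of them called in 3 of 3 and 1 in 0 of 3 -Asn+Fe libraries, and 34 at a gene start. Accepting 2 of 3 -Asn libraries gave 1206 regions, with 494, 191 and 228. Leaving out 1 library gave 579 to 1054 gained regions, 318 to 453 called in all -Asn+Fe libraries, 38 to 146 called in none and 128 to 205 at a start; with fewer libraries the rule asks for fewer calls. Requiring overlap with the 5′ end left 78 regions at a start, and protein-coding starts only left 74. Annotated first exons could not be used, since exons are not tied to transcripts.

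For genes at gained starts, the 500 bp minimum gave 19 higher and 1 lower in -Asn vs +Asn. It gave 4 and 4 in -Asn+Fe vs -Asn, and for -Asn+Fe vs +Asn 20 and 0. Keeping genes at the count minimum in all 3 +Asn libraries, an alternative chosen after seeing the data, left 29 higher genes in -Asn vs +Asn, while for -Asn+Fe vs +Asn it left 30. A 1.2-fold minimum gave 8 lower in -Asn+Fe vs -Asn and 2323 calls over all genes, against 5525. Leaving out 1 RNA library gave 46 to 50 higher and 9 to 11 lower in -Asn vs +Asn. The median log2 fold change of genes at gained starts, 1.32, ran from 0.73 to 1.87 in -Asn vs +Asn, and for -Asn+Fe against +Asn from 0.76 to 2.27 around 1.36. Of the 46 genes followed, none changed sign while called in the 18 alternatives. In -Asn vs +Asn 802 of their 826 values kept the side of the threshold, 13 lost the call and 11 gained one. Library totals without factors moved the median of all genes by 0.21 (log2) in -Asn vs +Asn, with 7343 higher and 3836 lower. Upper-quartile factors moved it by 0.16, with 6904 and 4222. In -Asn+Fe vs +Asn the shifts were 0.25 and 0.21. With library totals the genes at gained starts were 55 higher and 8 lower in -Asn vs +Asn.

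Same-numbered RNA libraries deviated together by correlations of only -0.081 to 0.072. These values show no pairing by replicate number, but they cannot exclude a shared culture or day with a small effect. With the replicate block the genes at gained starts were 49 higher and 10 lower in -Asn vs +Asn. The block gave 14 and 13 for iron against none in starved cells, and 50 and 9 against +Asn. The peak list holds no read depth of the H3K4me3 libraries, so a missing call is not shown to be a missing mark.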
